A study of Homo sapiens with 9 samples.

Results

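ERV1 retroviruses are copies of ancient gammaretrovirus-like infections that are now part of the human genome, and they were followed here without HERVH, the subfamily pair HERVH-int and LTR7 that is abundant in stem cells. Members were the repeat rows that the count table assigns to the family ERV1, with HERVH-int and the LTR7 names left out by name. This gave 294 subfamilies of 1181 repeat subfamilies in the table (300 ERV1 rows, of which 6 were left out). Of the 294, 66 carry the suffix of an internal region and 228 are LTRs.

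Each provirus entered as a pair of long terminal repeats (LTRs) around an internal region with the gag, pol and env genes. The LTR holds the promoter, enhancer and polyadenylation signal, and recombination between the pair has left most insertions as solitary LTRs. In human cells these sequences are kept largely silent by DNA methylation and H3K9 methylation, guided by zinc finger proteins and TRIM28, and single LTR subfamilies are known to serve as promoters or enhancers of nearby genes. A row of the table pools the reads of all copies with 1 name, so it does not say which copy was transcribed.

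The study profiled the established colorectal cancer line HCT116 by RNA-seq in 9 libraries. By label, 3 libraries came from cells with a control short hairpin RNA in the vehicle DMSO (shCTRL DMSO), 3 from cells with a hairpin against SLC6A3, the dopamine transporter gene also called DAT, in DMSO (shSLC6A3 DMSO), and 3 from control-hairpin cells given VXN (shCTRL VXN). All 9 therefore carry a hairpin, and no library of cells without one was used here. The labels name no hairpin sequence, clone, dose or duration, and do not say whether the replicates were separate cultures, so a p-value here measures only how these libraries scatter, which may reflect technical repeats.

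The authors' deposited comparison tables group the same libraries otherwise. The group called shCTRL D (here the D libraries) holds the libraries labelled shSLC6A3 DMSO 2 and 3 together with shCTRL VXN 2. The group called shDAT D (the DAT libraries) holds shCTRL DMSO 1 and 2 together with shCTRL VXN 1. The group called shCTRL V (the V libraries) takes 1 library from each labelled group: shCTRL DMSO 3, then shSLC6A3 DMSO 1, then shCTRL VXN 3. The tables themselves list no libraries, and the trios rest on the following match. A rerun of DESeq2 on these trios returned all 38907 p-values of the authors' deposited table for V and all 38907 of the DAT table within 1e-06. The labels and the tables cannot both be right, and these data do not show which source names the treatments correctly. Libraries are therefore named by label, and the tables' groups by their letters, with no claim about knockdown or VXN. SLC6A3 itself did not help, since it had 0 to 6 reads in every library.

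Total counts ran from 30.3 M to 60.2 M per library. Epithelial markers were abundant, with all 8 of the list detected and summed normalised counts of 207510 to 261190 per library. Of 12 fibroblast, leukocyte and endothelial markers, 11 had reads in some library and LUM had none. Their sums ran from 926 to 2269, most of it COL1A1, with 895 and 962 in shSLC6A3 DMSO 2 and 3 and 1472 to 2199 in the other 7 libraries. COL1A2, which fibroblasts make together with COL1A1, had at most 0.996 normalised counts in any library, DCN at most 1.51 and PTPRC at most 3.03.

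No consensus sequence of a repeat subfamily was used here, so the sequences that can be shown are those of 2 genes whose coding regions descend from ERV1 envelopes and whose transcripts moved in opposite directions below. Each is the 250 bases before and 50 after the first RefSeq start site on GRCh38.p14, minus strand, printed 5′ to 3′. In the ERVMER34-1 window, chr4:52751376-52751675, capitals mark the GC box GGGCGG, here in its reverse form CCGCCC. In the ERV3-1 window, chr7:65006638-65006937, capitals mark CCAAT.
ERVMER34-1: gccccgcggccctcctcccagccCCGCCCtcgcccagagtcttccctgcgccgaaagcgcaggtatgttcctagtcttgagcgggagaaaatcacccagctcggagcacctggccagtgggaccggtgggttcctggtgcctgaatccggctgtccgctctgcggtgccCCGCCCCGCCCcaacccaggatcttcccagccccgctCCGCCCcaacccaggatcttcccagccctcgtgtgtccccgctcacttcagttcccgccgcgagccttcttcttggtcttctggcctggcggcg
ERV3-1: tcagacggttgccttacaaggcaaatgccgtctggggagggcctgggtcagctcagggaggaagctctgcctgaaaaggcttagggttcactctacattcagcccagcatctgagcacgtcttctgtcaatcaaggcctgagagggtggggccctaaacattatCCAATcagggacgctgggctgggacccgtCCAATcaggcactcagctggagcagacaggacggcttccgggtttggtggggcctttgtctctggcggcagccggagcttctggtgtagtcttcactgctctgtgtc
The search covered both strands for the GC box and CCAAT box spelled above and for TGANTCA, an AP-1 motif. The ERVMER34-1 window held 4 GC boxes and neither of the other motifs, and the ERV3-1 window held 2 CCAAT boxes and neither of the others. ERV3-1 has another RefSeq start, not printed here. Its window, chr7:64999393-64999692, held 1 GC box and neither of the other motifs. Of 35116 RefSeq promoter windows of the same 300 bases, 45% held the GC box, 34.6% the CCAAT box and 7.71% the AP-1 motif, so such matches are common.

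ERV1 transcripts outside HERVH made up a small share of the RNA, and the 5 rows with the highest mean held 30.8% to 41.2% of it by library. By library, 0.0576% to 0.0757% of all counts fell on the 294 members, and internal regions gave 42.9% to 47.4% of these. MER34B-int alone took 15.8% to 19.9% of the ERV1 counts, with a mean over the 9 libraries of 5868 normalised counts (counts divided by the DESeq2 size factor). LTR12C followed at 2124, an LTR of HERV9 known as an alternative promoter, then HERVIP10F-int at 1950 and its relative HERVIP10FH-int at 900.5. The median member had 34.0, 71 members were under 10, 119 reached 50, and 18 reached 300. HERV-Fc1_LTR2, HERV-Fc2-int and HERV-Fc2_LTR had no read in any library. Row sizes depend on copy number and length, so these levels do not rank subfamilies by activity per copy.

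The largest gap in the ERV1 share lay inside the D trio and followed no labelled group. By value the trios still ran in order from D to DAT to V, with shCTRL VXN 2 just below the DAT libraries. The share was lowest in shSLC6A3 DMSO 2 at 0.0577% (exact 95% binomial interval 0.0571% to 0.0583%) and shSLC6A3 DMSO 3 at 0.0576% (0.0569% to 0.0582%). The third D library, shCTRL VXN 2, stood at 0.0703% (0.0696% to 0.0710%), close to the DAT libraries at 0.0734%, 0.0706% and 0.0721%. The V libraries were at 0.0757%, 0.0754% and 0.0742%. The intervals cover counting error only. In bulk RNA, fewer cells of a type and less RNA per cell cannot be told apart.

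**Figure D1:**
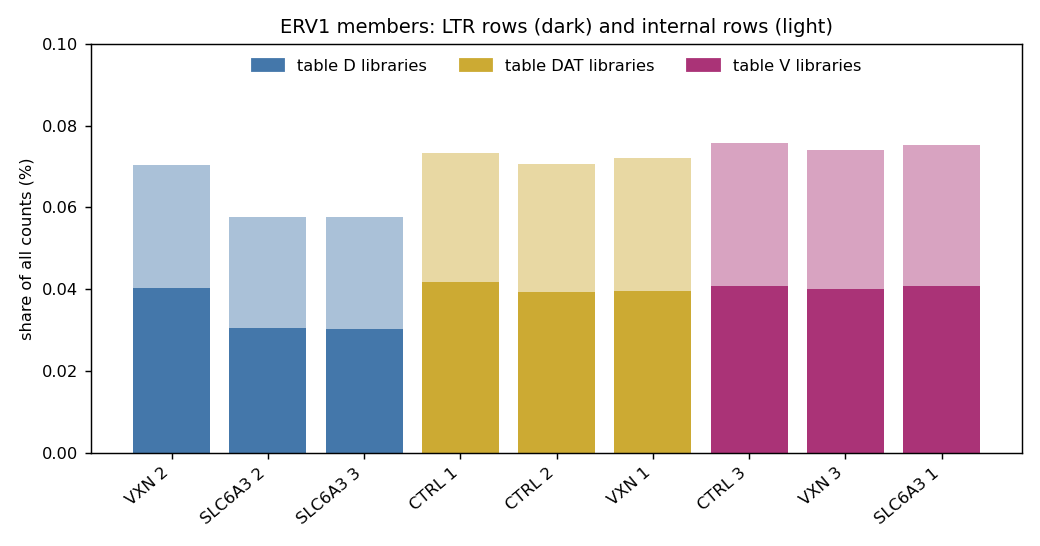
Share of all counts (%, vertical axis from 0) on LTR rows (dark, below) and internal rows (light, above) of the 294 ERV1 members in each of the 9 libraries, coloured by the trio of the authors' tables. shSLC6A3 DMSO 2 and 3 sit at 0.0577% and 0.0576%, below the other 7 libraries at 0.0703% to 0.0757%.

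Other repeats moved too, so the order changed with the denominator. As a share of all repeat counts, ERV1 was 3.43% in shSLC6A3 DMSO 2 and 3.42% in shSLC6A3 DMSO 3. It was 4.02% in shCTRL VXN 2, 4.04% to 4.22% in the DAT libraries and 3.50% to 3.88% in the V libraries. In the V libraries, repeats as a whole took 1.95% to 2.12% of counts, against 1.68% to 1.77% in the other 6.

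shCTRL VXN 2 stood apart from its trio subfamily by subfamily. Of the 119 members with a mean of 50 or more, 95 (79.8%) were nearer in this library to the mean of the DAT libraries than to the mean of shSLC6A3 DMSO 2 and 3. The same held for 80.6% of all 15121 features of that size, so the ERV1 members were no exception in this. Counts that rest on the D libraries are given below with and without it.

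In the authors' deposited table of V over D, ERV1 subfamilies changed in both directions, led, among members with a base mean of 50 or more, by a rise of LTR48B and a fall of MER4A. Of 267 members with an adjusted p, 28 rose and 16 fell (DESeq2, adjusted p under 0.05), which is 16.5%. Over all 24274 features tested in the authors' deposited table the share called was 44% (21.4% higher, 22.7% lower), and over the other repeats it was 17.5%. Most members are small rows: the authors' deposited table calls 21 higher and 10 lower of the 119 with a base mean of 50 or more (26.1%). The median log2 fold change of the 267 was 0.05, and that of all features tested was -0.00. Internal regions gave 6 higher and 6 lower of 63, and LTRs 22 higher and 10 lower of 204. Scaled on repeats alone the split turned to 18 higher and 21 lower, with 18 and 16 of the calls shared (40% of all features called, 15.3% higher and 24.8% lower), so the balance of directions depends on the scaling. Without shCTRL VXN 2 the counts were 38 and 7 (22 and 6 shared), against 48.1% of all features (23.5% higher, 24.6% lower). The lower calls also dropped to 8 without shCTRL DMSO 3 and to 8 without shSLC6A3 DMSO 1. The share of all features called in those fits is not given here, so the drop cannot be set against it.

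LTR48B rose most. Its normalised counts were 389 in shSLC6A3 DMSO 2, 388 in shSLC6A3 DMSO 3 and 358 in shCTRL VXN 2 (the D libraries), 417 in shCTRL DMSO 1, 405 in shCTRL DMSO 2 and 410 in shCTRL VXN 1 (the DAT libraries), and 1370 in shCTRL DMSO 3, 1394 in shSLC6A3 DMSO 1 and 1305 in shCTRL VXN 3 (the V libraries). The V libraries stand clear of the other 6, which range from 358 to 417. In the authors' deposited table the V over D log2 fold change was 1.84 (SE 0.09, adjusted p = 6.15e-100). Its sister LTR48 rose less, by 0.53 in the authors' deposited table (SE 0.19, adjusted p = 0.00699). In the same library order, which is kept from here on, LTR48 had 77.2, 74.6 and 66.9, then 83.3, 98.8 and 89.3, then 108, 109 and 109.

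HERVIP10F-int, the internal region of a HERVIP10 provirus whose LTRs belong to the LTR10 group, rose in the same libraries. It had 1535, 1555 and 1517 in the D libraries, 1599, 1568 and 1535 in the DAT libraries, and 2904, 2756 and 2581 in the V libraries. Again only the V libraries stand apart, and the authors' deposited table gives 0.83 (SE 0.07, adjusted p = 1.97e-32). LTR10A, an LTR of that group known to bind p53, had 174, 201 and 222, then 246, 216 and 233, then 401, 379 and 380. Its V values lie above all others, at 0.94 in the authors' deposited table (SE 0.13, adjusted p = 3.01e-12). Relatives did not all follow. HERVIP10FH-int was at 0.18 in the authors' deposited table (adjusted p = 0.0748), LTR10F at 0.44 (adjusted p = 0.0676) and LTR10C at 0.13 (adjusted p = 0.712), and HERVIP10B3-int was lower by 0.46 (adjusted p = 0.0381). Of the 16 subfamilies of the HERVI and HERVIP10 group, 14 had an adjusted p, and 3 were higher and 1 lower. That is 28.6% called, against 44% of all features tested in the authors' deposited table. HERVIP10B3-int lost its call with no filter on low means (adjusted p = 0.0608), and without shSLC6A3 DMSO 1, 2 or 3, shCTRL VXN 2 or shCTRL VXN 3, with adjusted p from 0.066 to 0.15.

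MER41B, an LTR, had 172, 180 and 270 in the D libraries, 245, 226 and 221 in the DAT libraries, and 458, 417 and 471 in the V libraries. The V values lie above the rest, and within D shCTRL VXN 2 is the high one. The authors' deposited table gives 1.08 (SE 0.17, adjusted p = 5.65e-10). The internal region MER41-int rose by 0.58 in the authors' deposited table, from 263 ± 9.88 (SD, n = 3) in D to 398 ± 40.6 in V, while MER41E was at -0.29 there (adjusted p = 0.216).

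MER34, an LTR, had 121, 170 and 140 in the D libraries, 114, 134 and 166 in the DAT libraries and 274, 259 and 304 in the V libraries, with no overlap between V and the rest. Its log2 fold change in the authors' deposited table was 0.91 (SE 0.18, adjusted p = 6.23e-07). MER34B-int, the most abundant member, moved less, with 5458, 5526 and 4954, then 5516, 5206 and 6029, then 6696, 6633 and 6795. The V values are highest, but by a small margin, and the authors' deposited table gives 0.33 (SE 0.08, adjusted p = 3.62e-05). Scaled on repeats alone the value fell to 0.23 and its adjusted p was 0.0961.

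LTR12C, the HERV9 LTR, had 1510, 1520 and 2071 in the D libraries, 2009, 1936 and 2191 in the DAT libraries and 2712, 2610 and 2557 in the V libraries. It is lowest in the pair shSLC6A3 DMSO 2 and 3, intermediate in shCTRL VXN 2 and the DAT libraries, and highest in V. The authors' deposited table gives 0.61 for V over D (SE 0.12, adjusted p = 1.27e-06). LTR12D, of the same group, went the other way, at -0.57 in the authors' deposited table (adjusted p = 0.0258). That call was lost without shSLC6A3 DMSO 1 or 3, or without shCTRL VXN 2 or 3. The HERV9 internal regions HERV9-int, HERV9N-int and HERV9NC-int were at 0.15, 0.28 and -0.01 in the authors' deposited table, none called.

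Among the other high risers by the naming rule, the trio means and SDs (n = 3 each) were as follows. MER67C went from 195 ± 34.6 in D to 398 ± 30.4 in V, MER101-int from 366 ± 37.1 to 592 ± 23.5, and MER90 from 135 ± 19.0 to 233 ± 10.7. MER83 went from 32.2 ± 6.17 to 76.3 ± 10.7, and LTR15, the LTR of HERV15, from 37.9 ± 15.02 to 73.3 ± 7.66. V and D did not overlap in any of the 5. These members were named for their V over D calls, as were LTR48B, HERVIP10F-int, LTR10A, MER41B and MER34 above. A gap between V and D in them is therefore no separate evidence. The log2 fold changes of the 5 in the authors' deposited table were 1.001, 0.68, 0.75, 1.14 and 0.83 in that order.

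**Figure D2:**
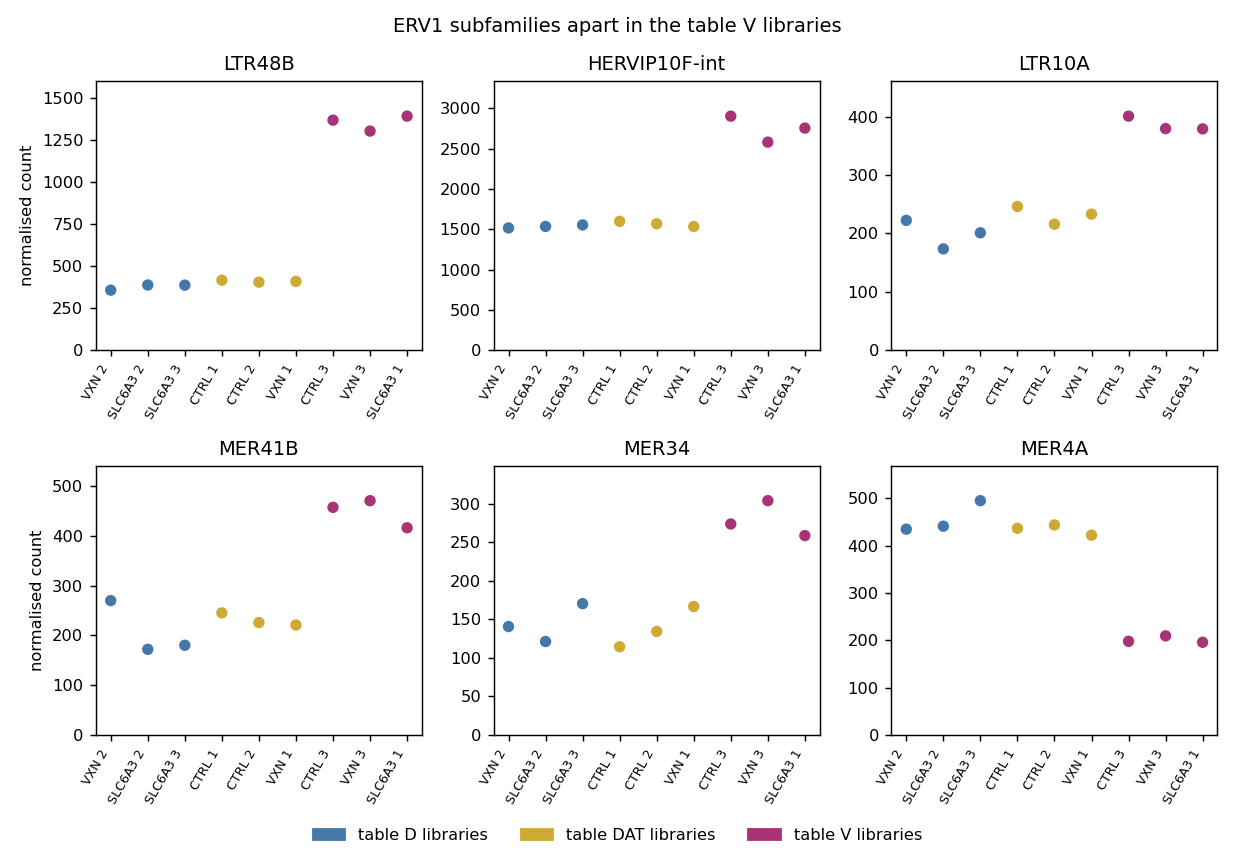
Normalised counts (vertical axes from 0) of 6 ERV1 subfamilies in each of the 9 libraries, with each point 1 library, coloured by trio. In all 6 panels the V libraries lie apart from the other 6 libraries, above them for LTR48B, HERVIP10F-int, LTR10A, MER41B and MER34 and below them for MER4A.

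Among members with a base mean of at least 50, the lower ones were led by MER4A, an LTR, with 441, 495 and 435 in the D libraries, 437, 444 and 422 in the DAT libraries and 198, 196 and 209 in the V libraries. The V libraries are below the other 6 by more than the spread within any trio, and the authors' deposited table gives -1.17 (SE 0.12, adjusted p = 1.01e-23). MER4 relatives moved otherwise: MER4E1 rose in the authors' deposited table by 0.67 (adjusted p = 0.0007), with 332, 347 and 254, then 313, 278 and 342, then 410, 452 and 674. For MER4E1 the V libraries are highest, and shCTRL VXN 3 sits above the other V libraries.

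LTR25 had 424, 378 and 270 in the D libraries, 266, 247 and 294 in the DAT libraries and 171, 168 and 180 in the V libraries. It is highest in the pair shSLC6A3 DMSO 2 and 3 and lowest in V, at -1.004 in the authors' deposited table (SE 0.18, adjusted p = 1.72e-08). LTR46 had 60.5, 64.6 and 89.5, then 129, 88.8 and 98.4, then 39.1, 36.5 and 35.9. V is again lowest, and the authors' deposited table gives -0.85 (SE 0.27, adjusted p = 0.0016). HERVFH21-int went from 271 ± 32.0 to 171 ± 9.67 (SD, n = 3), or -0.63 in the authors' deposited table. MER67B, PRIMA41-int, LTR45C and HUERS-P3b-int, the last an internal region of a HUERS-P provirus, were at -0.62, -0.52, -0.52 and -0.43 in the authors' deposited table. Each of these 4 lost its call when some single library was left out. For MER67B these were shCTRL DMSO 3, shSLC6A3 DMSO 1 and shCTRL VXN 2, and for PRIMA41-int shSLC6A3 DMSO 1 and 3 and shCTRL VXN 3. For LTR45C they were shCTRL DMSO 3 and shSLC6A3 DMSO 1, 2 and 3, and for HUERS-P3b-int the same 4 and shCTRL VXN 2. Of the 20 members named as the 10 highest and 10 lowest, 14 kept their call in all 12 alternatives, among them all 10 of the higher ones.

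**Figure D3:**
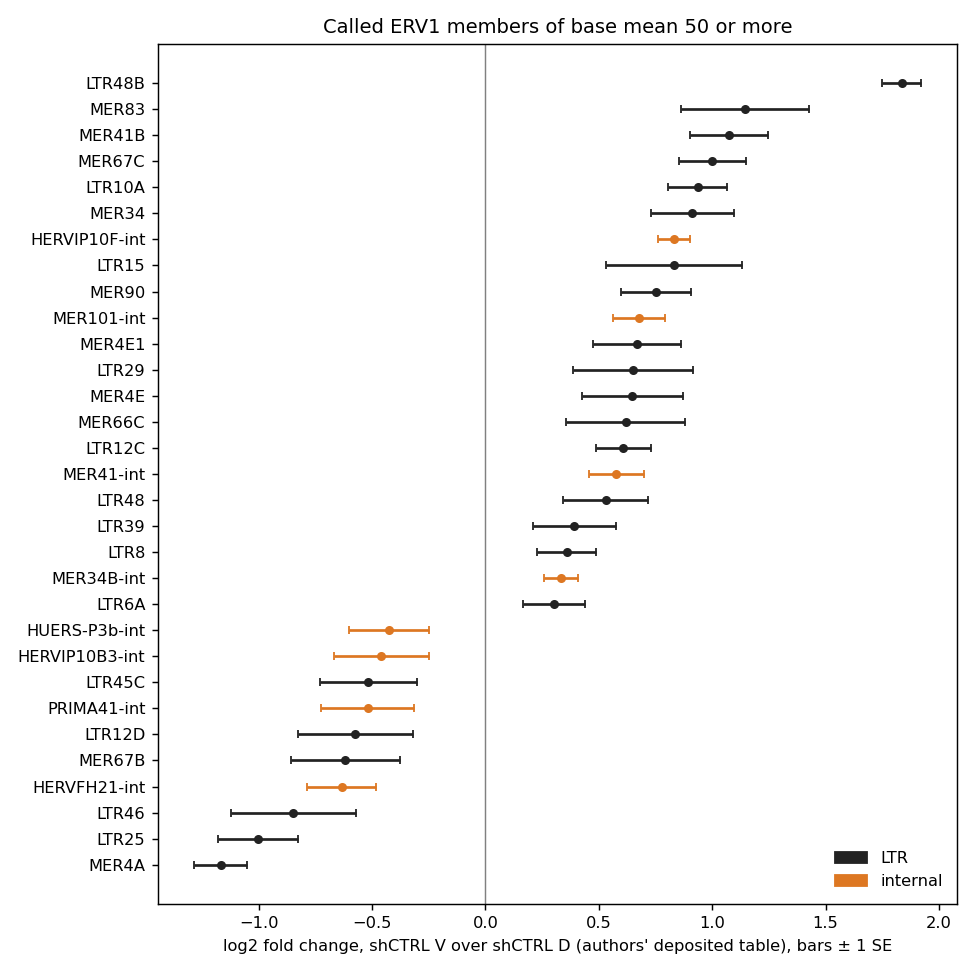
Log2 fold change of V over D in the authors' deposited table (horizontal axis, bars ± 1 SE) for the 31 called ERV1 members with a base mean of 50 or more, LTRs in black and internal regions in orange. LTR48B at 1.84 lies far to the right of the other 20 higher members, and MER4A at -1.17 is the lowest of the 10 lower ones.

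Subfamilies often studied for their envelope or promoter use were mostly not called. In the authors' deposited table, HERV17-int, the internal region of HERV-W that gave rise to syncytin, was at -0.26 (adjusted p = 0.214) and its LTR17 at -0.39 (adjusted p = 0.0968). There too, in the authors' deposited table, HERVE-int was at 0.24 (adjusted p = 0.257) and its LTR2B at 0.06. The authors' deposited table has HERV3-int and its LTR4 at 0.17 and 0.07, and HERVS71-int at -0.37 (adjusted p = 0.115). LTR6A, the LTR of HERVS71, was called in the authors' deposited table at 0.30 with an adjusted p of 0.0492 and lost the call in 9 of 12 alternatives. HERV1_I-int and MER61C, at -0.14 and -0.25 in the authors' deposited table, had at most 8.19 and 21.2 normalised counts in any library.

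For DAT over D no ERV1 member was called in the authors' deposited table. Only 9 of 294 members have an adjusted p there, since DESeq2 withholds it from features of low mean, and 0 of the 9 passed, against 6.62% of 10403 features tested (1% higher, 5.62% lower). At an unadjusted p below 0.05 the authors' deposited table has 24 members higher and 2 lower. That is 26 of the 291 members with a p, beside 4418 of 38907 features in the authors' deposited table. edgeR tested 230 members on the same trios and called 0, with 32 higher and 1 lower at an unadjusted p below 0.05, and it called 0% of all 20402 features, of which 4251 were below that p. DESeq2 without its filter on low means called 0 of 291, against 0.0231% of all features (0.00514% higher, 0.018% lower).

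Leaving out shCTRL VXN 2 changed this result. That library was singled out on these same counts for its nearness to the DAT libraries, so leaving it out favours a difference between DAT and D. The DAT over D p-values without it, here and below, make no allowance for that choice. Against shSLC6A3 DMSO 2 and 3 alone, DESeq2 called 39 members higher and 1 lower of 235 tested, against 37.5% of all features (14.8% higher, 22.7% lower). The 235 had a median log2 fold change of 0.34, and all features tested had -0.03. The shift was shared with other repeats, since 149 of 690 outside the members were higher and 8 lower, among them ERVL with 19 higher and 1 lower of 104 and ERVL-MaLR with 21 and 0 of 71. edgeR without this library called 66 higher and 1 lower of 232, against 43% of all features (21.5% in each direction). Scaled on repeats alone, without this library, DESeq2 called 10 higher and 8 lower of 278, with 5.11% of all features higher and 33.5% lower. All 10 were among the 39. That scaling moved the median of all features by -0.24, and 10 of the 39 members were higher relative to repeats as well as to all features. COL1A1 was also low in shSLC6A3 DMSO 2 and 3, with COL1A2 and LUM at or near 0. Of the same markers VWF was low there too, at 11.9 and 15.5 normalised counts against 20.2 or more elsewhere. CDH5 went the other way, at 12.7 and 10.9 there and at most 1.77 elsewhere. The part of these genes in the values above was not tested.

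MER52A, an LTR, was called higher under both scalings. It had 385, 364 and 728 in the D libraries, 737, 696 and 673 in the DAT libraries and 340, 369 and 359 in the V libraries. shCTRL VXN 2 sits among the DAT libraries, and shSLC6A3 DMSO 2 and 3 sit with V. Without shCTRL VXN 2 the DAT over D log2 fold change was 0.91 (SE 0.10, DESeq2 adjusted p = 1.85e-16), and 0.67 scaled on repeats.

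HERVE-int, the internal region of HERV-E, had 287, 329 and 530 in the D libraries, 487, 523 and 543 in the DAT libraries and 457, 476 and 454 in the V libraries. It is low in the pair shSLC6A3 DMSO 2 and 3 and at 454 to 543 in the other 7. The log2 fold change without shCTRL VXN 2 was 0.74 (SE 0.11, DESeq2 adjusted p = 1.15e-09), and 0.51 scaled on repeats. LTR12C, with its values above, was at 0.43 (SE 0.07, DESeq2 adjusted p = 3.82e-09).

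LTR10C had 72.5, 50.1 and 166 in the D libraries, 144, 143 and 141 in the DAT libraries and 98.3, 105 and 124 in the V libraries. shCTRL VXN 2 is here the highest of all 9, and the value without it was 1.21 (SE 0.23, DESeq2 adjusted p = 1.16e-06). MER39B, LTR19A, MER4B and LTR39 were at 0.84, 0.78, 0.76 and 0.75, and each was also called when scaled on repeats. LTR49, LTR15 and LTR46 were at 0.95, 0.77 and 0.76 and were not called when scaled on repeats. LTR25 was the 1 member called lower, at -0.59 (SE 0.14, DESeq2 adjusted p = 0.00011). HERVIP10F-int and MER34B-int were both at 0.02 without shCTRL VXN 2.

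**Figure D4:**
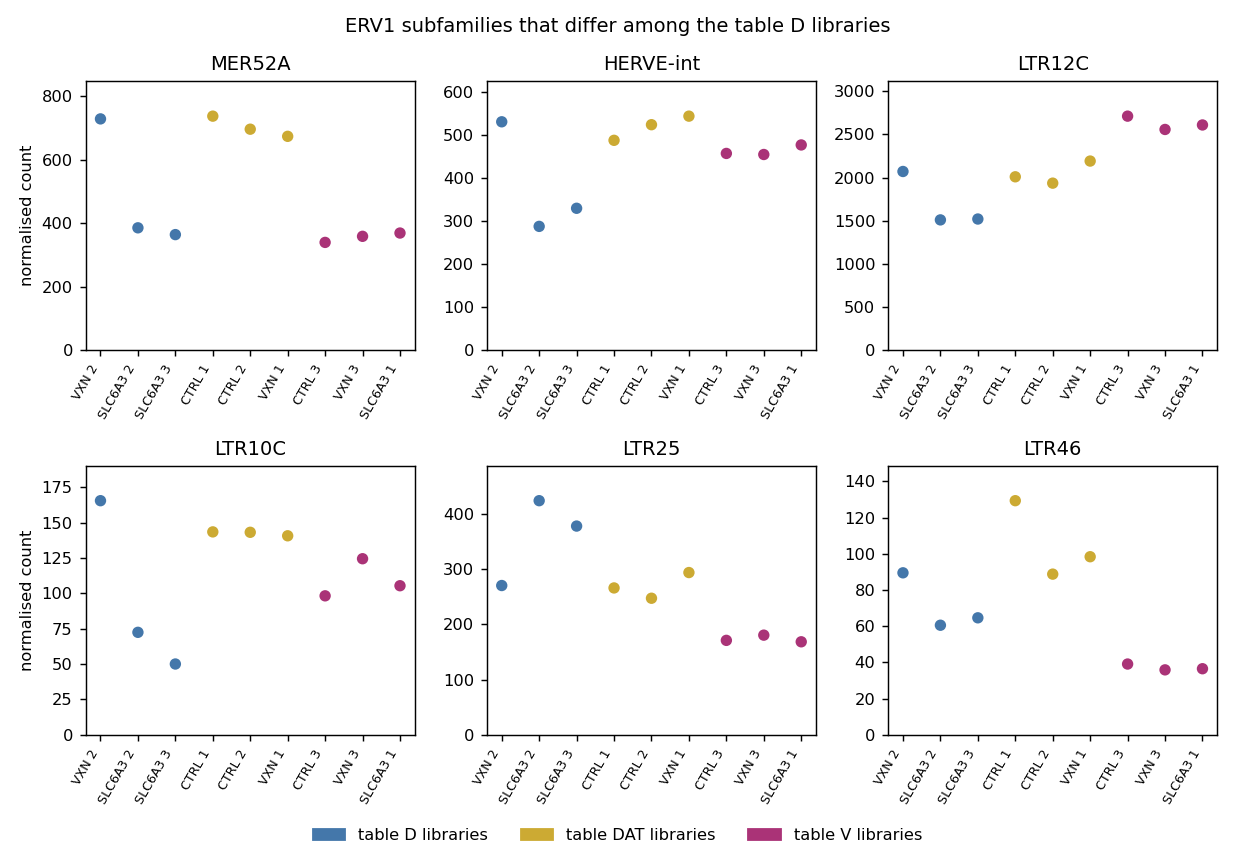
Normalised counts (vertical axes from 0) of 6 ERV1 subfamilies in each of the 9 libraries, with each point 1 library, coloured by trio. In the D trio shCTRL VXN 2 lies apart from shSLC6A3 DMSO 2 and 3 in every panel, as for MER52A with 728 against 385 and 364, and lies among or near the DAT libraries.

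The V and DAT libraries were also compared directly, with no D library as a control. All 9 libraries were in the fit, so the D libraries, shCTRL VXN 2 among them, still entered its filter, scaling and estimate of spread. Only V and DAT libraries were left out in turn here, so shCTRL VXN 2 stayed in every fit of this comparison. edgeR called 26 members higher in V and 35 lower of 230 tested, which is 26.5%, against 57.5% of all 20402 features (28.8% higher, 28.7% lower). The median log2 fold change of the members was -0.10, and that of all features 0.00. The higher count fell to 17 without shCTRL DMSO 1, 15 without shCTRL DMSO 2, 17 without shCTRL DMSO 3 and 17 without shSLC6A3 DMSO 1. How the share of all features called moved in those fits is not given here.

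LTR48B again led the higher members. It was higher by 1.72 (SE 0.07, edgeR adjusted p = 1.93e-08), MER34 by 1.02 (SE 0.17, edgeR adjusted p = 0.000428), MER41B by 0.96 (SE 0.17) and HERVIP10F-int by 0.81 (SE 0.06). MER67C, LTR10A, MER4E1 and MER101-int followed at 0.76, 0.74, 0.73 and 0.69. MER66C at 0.67 lost its call without shCTRL DMSO 1, shCTRL DMSO 2 or shSLC6A3 DMSO 1. MER83 at 0.61 lost it without shCTRL DMSO 1 or 3, shSLC6A3 DMSO 1 or shCTRL VXN 1, with no filter on low counts, and with DESeq2. Among members with a mean of at least 50, the lowest were LTR46 at -1.51 (SE 0.22, edgeR adjusted p = 0.00018), MER4A at -1.11 (SE 0.09, edgeR adjusted p = 2.26e-06), LTR12D at -1.03, LTR45C at -1.01 and MER52A at -0.98. MER41E, PRIMA41-int, PABL_A-int, MER67B and HERVFH21-int lay between -0.90 and -0.76, of which PABL_A-int lost its call without shCTRL DMSO 1 or 3 or shCTRL VXN 1 or 3. The 2 HERV17 rows, HERV17-int and LTR17, were both lower, by 0.48 and 0.60 on the log2 scale. HERV17-int lost its call without shCTRL DMSO 2 or 3 or shSLC6A3 DMSO 1, and LTR17 without shCTRL DMSO 1, 2 or 3 or shCTRL VXN 3. LTR12C was called higher in V. It lost that call without shCTRL DMSO 1, 2 or 3 or shSLC6A3 DMSO 1, with edgeR adjusted p from 0.0534 to 0.0832. HERVE-int, which set the D pair apart, was at -0.16 here (adjusted p = 0.51, edgeR).

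Between the labelled groups no member was called. edgeR called 0 of 230 in shSLC6A3 DMSO against shCTRL DMSO, where 0% of 20402 features were called. At an unadjusted p below 0.05 it had 0 members higher and 15 lower, and DESeq2 also called 0, with 0 higher and 16 lower at that p. Of all 20402 features, 930 were below that p in edgeR. The median log2 fold change of the members was -0.26, and that of all features -0.01. In shCTRL VXN against shCTRL DMSO edgeR called 0 of 230, where 0.0098% of features were called. Here 0 members had an unadjusted p below 0.05 in edgeR or in DESeq2, which also called 0, beside 384 of 20402 features in edgeR, and the median was -0.04. The spread within labelled groups was wide: LTR48B had 417, 405 and 1370 in shCTRL DMSO, 1394, 389 and 388 in shSLC6A3 DMSO, and 410, 358 and 1305 in shCTRL VXN. Each labelled group holds 1 V library, so the groups overlap, and an absence of calls does not show that the treatments left ERV1 unchanged.

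Genes derived from ERV1 envelopes were followed as a fixed list of 6. ERVW-1, ERVFRD-1 and ERVV-1, the first a syncytin gene of the placenta and the second its relative, had no read in any library, and ERVV-2 had 1 read in all. ERVMER34-1 (ENSG00000226887, GRCh38 chromosome 4, 52722618 to 52751640, minus strand, GENCODE 29) encodes an envelope-like membrane protein. It had 1726, 1689 and 1400 normalised counts in the D libraries, 1496, 1527 and 1433 in the DAT libraries and 399, 461 and 393 in the V libraries. The V libraries are far below the rest, and the authors' deposited table gives -1.93 (SE 0.11, adjusted p = 2.46e-68). The V over D value without shCTRL VXN 2 was -2.03 (DESeq2 adjusted p = 3.66e-125). MER34B-int, a repeat row of the MER34 group, was by contrast highest in V.

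ERV3-1 (ENSG00000213462, GRCh38 chromosome 7, 64990809 to 65006743, minus strand, GENCODE 29), an envelope gene of HERV-R, had 115, 121 and 191 in the D libraries, 166, 182 and 154 in the DAT libraries and 288, 296 and 292 in the V libraries. It is lowest in shSLC6A3 DMSO 2 and 3 and highest in V, and the authors' deposited table gives 0.99 (SE 0.19, adjusted p = 3.39e-07). With shCTRL VXN 2 left out, V over D gave 1.31 (DESeq2 adjusted p = 1.19e-15). Without shCTRL VXN 2 its DAT over D log2 fold change was 0.51 (DESeq2 adjusted p = 0.00739). HERV3-int had 20.9 to 43.6 normalised counts in any library, with the trios overlapping. How reads in a gene that overlaps a repeat copy were shared between the gene row and the subfamily row is not given in the sources used here, and the library kit does not record strand.

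**Figure D5:**
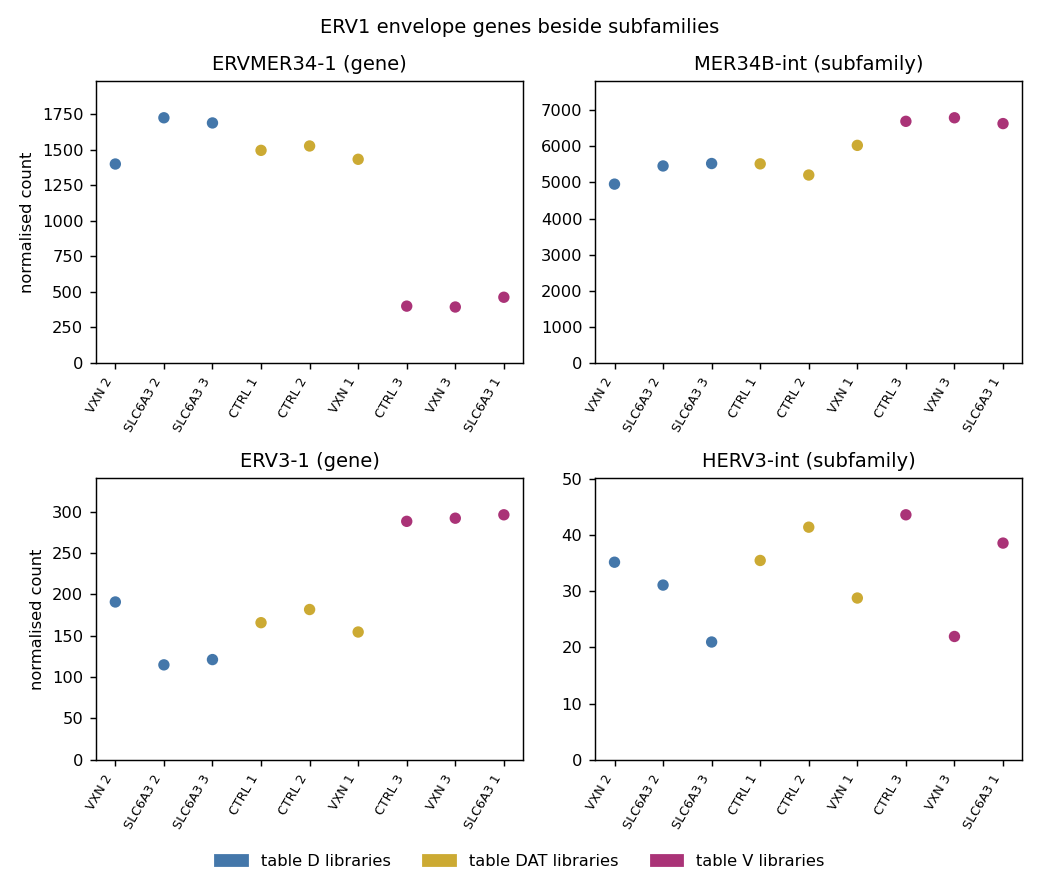
Normalised counts (vertical axes from 0) of 2 ERV1 envelope genes (left) and 2 ERV1 internal subfamilies (right) in each of the 9 libraries, coloured by trio. ERVMER34-1 is at 393 to 461 in the V libraries against 1400 to 1726 elsewhere while MER34B-int is highest there, and ERV3-1 is highest in V while HERV3-int overlaps.

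Genes that silence retroelements moved with the V libraries as well. In V over D, the authors' deposited table calls 4 of the 20 on the list higher and 12 lower, against 21.4% higher and 22.7% lower of all features tested. With shCTRL VXN 2 left out, DESeq2 called 2 higher and 12 lower of the 20, against 23.5% higher and 24.6% lower of all features. The calls of MORC2 (DESeq2 adjusted p = 0.0668) and TASOR (DESeq2 adjusted p = 0.0705) were then lost. Among the lower ones the authors' deposited table gives HELLS, a chromatin remodeller needed for DNA methylation, at -2.99, UHRF1, which brings DNMT1 to replicating DNA, at -2.60, the H3K9 methyltransferase SUV39H1 at -2.11, and DNMT1, the maintenance DNA methyltransferase, at -1.61. TRIM28, the corepressor of zinc finger proteins, was at -0.72 in the authors' deposited table. RESF1, a partner of the H3K9 methyltransferase SETDB1, was higher there by 0.67, SETDB1 itself by 0.17, MORC2 by 0.27 and TASOR by 0.13 (the authors' deposited table). For DAT over D 0 of the 20 were higher and 1 was lower in the authors' deposited table, TRIM28 at -0.16 (adjusted p = 0.0499). That is near the share of all 10403 features tested there, 1% higher and 5.62% lower. On the same trios edgeR called 0% of all features. Without shCTRL VXN 2 the counts for DAT over D were 2 higher and 14 lower, against 37.5% of all features (14.8% higher, 22.7% lower). Of 7 double-stranded RNA sensing genes, 2 were higher in V over D in the authors' deposited table (DDX58, encoding RIG-I, by 0.57 and MAVS by 0.26) and EIF2AK2, encoding the kinase PKR, was lower at -0.30, against 44% of all features called there. These counts were also 2 higher and 1 lower without shCTRL VXN 2, against 48.1% of all features. For DAT over D, 4 of the 7 have an adjusted p in the authors' deposited table and 0 were called, against 6.62% of all features. With shCTRL VXN 2 left out, DESeq2 called 1 of the 7, against 37.5% of all features. This was DHX58, a RIG-I-like receptor gene, higher by 1.06 (SE 0.42, DESeq2 adjusted p = 0.0339). Its counts were low, 18.3 and 20.9 in shSLC6A3 DMSO 2 and 3 and 39.3 to 42.4 in the DAT libraries. The part of these genes in the ERV1 values was not tested.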

How the data were processed

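HCT116 RNA from 9 libraries was made with a TruSeq RNA v2 kit, per the labels' protocols. The submitters' processing notes name fastp 0.20.1, FastQC 0.11.9, STAR, DESeq2 1.34.0 and GRCh38. The program that counted repeats and its handling of multiply mapped reads are not given in the sources used. Multiply mapped reads weigh most on young repeat subfamilies. The counts deposited by the authors are unnormalised, per gene and per repeat subfamily (60651 and 1181 rows). In the authors' deposited tables, log2 fold changes are DESeq2 values shrunk towards 0, so low rows are understated, and they are not on the scale of the unshrunken refits given here. Both p-value columns there were computed by DESeq2, per the file headers. The base mean column, deposited beside them, is a signal: normalised counts averaged over the 9 libraries.

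Members and lists were chosen with earlier results of these data known. Labelled groups and V against DAT were compared with edgeR 4.0.16 (quasi-likelihood, filterByExpr with a minimum count of 10, all 9 libraries), and refits of the authors' tables used DESeq2 1.42.0 in R 4.3.3. All genes and repeats were fitted together, with Benjamini-Hochberg adjustment and calls at an adjusted p below 0.05. An SE beside an edgeR value is the absolute log2 fold change divided by the square root of the test's F statistic, since edgeR returns none. Both tools were tested on simulated data. Named members were the 10 highest and 10 lowest called per comparison with a mean of at least 50, a fixed list of well-known subfamilies, and the 5 most abundant. The same rule, applied after the values were seen, named members of DAT over D without shCTRL VXN 2, and other members named were chosen after their values were seen. Alternatives were other scalings (on repeats or genes alone), other tools and filters, each library of the comparison left out in turn, and a replicate block.

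Replicate numbers are shared by the labelled groups. Deviations from the group means over 15294 features correlated at 0.855, 0.888 and 0.953 between same-numbered shCTRL DMSO and shCTRL VXN libraries, so their numbers were taken as pairs, and at -0.815, 0.809 and -0.802 between shCTRL DMSO and shSLC6A3 DMSO libraries, which were not. The V library is number 3 in shCTRL DMSO and shCTRL VXN and number 1 in shSLC6A3 DMSO. The correlations are positive where both libraries of a number are V or neither is, and negative otherwise. They therefore do not show whether same-numbered libraries were made as pairs.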

Additional observations from a re-analysis of the deposited data

How the results depend on the processing

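Counts of called members moved with the scaling and with single libraries. In V over D, scaling on repeats alone gave 18 higher, and leaving out 1 library gave 19 to 38 higher and 7 to 15 lower. There, edgeR without shCTRL VXN 2 gave 65 higher. The share of all features called in that fit is not given here, so the 65 cannot be set against it. That fit was an alternative chosen after seeing the data, as are the others without that library that also change scaling or tool. In DAT over D, leaving out 1 library gave 0 to 39 higher and 0 to 1 lower, and only the fits without shCTRL VXN 2 called any member in either direction apart from 1 lower when scaled on repeats alone. Without shCTRL VXN 2, scaling on repeats gave 10 higher and 8 lower and edgeR 66 higher and 1 lower. In V over DAT, leaving out 1 library gave 15 to 25 higher. Of the fits that left out 1 library, the share of all features called is given here only for some without shCTRL VXN 2. Counts from the others therefore cannot be set against such a share. Scaling on repeats alone moved the median of all features by -0.10 in V over D, -0.17 in DAT over D and 0.06 in V over DAT.

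Among the named members, the sign turned in 3 values where either fit made a call. Turns of sign without a call were not counted. HERV9NC-int in V over D went from -0.01 to 0.32 with edgeR without shCTRL VXN 2, and the cause was not tested. Its unnormalised counts in D were 300 in shCTRL VXN 2, and 190 and 160 in shSLC6A3 DMSO 2 and 3. DESeq2 without that library also put all 3 HERV9 internal regions above 0, none of them called. In DAT over D, scaled on repeats without that library, HERVIP10F-int went to -0.22 and MER34B-int to -0.22, where that scaling by its construction moved the median of all features by -0.24. With the replicate number as a block, over all 9 libraries or over the 6 of each pair of labelled groups, 0 members were called in either labelled comparison, so pairing changed no call. The shCTRL DMSO and shSLC6A3 DMSO libraries share only a number, and not every library correlated best with its own.

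Depth limits the low rows: 71 members averaged under 10 normalised counts, and differences there were not detectable at this depth unless large.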
